A study of Mus musculus with 3 samples.

Results

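The angiopoietins and their Tie receptors were examined for FOXF1 binding in the fetal mouse lung. The 6 genes were chosen by name: the receptor genes Tek and Tie1, the receptor phosphatase gene Ptprb, and the ligand genes Angpt1, Angpt2 and Angpt4. They are 6 of 21883 protein-coding genes in the annotation used, and 51 of 51013 shared FOXF1 sites were assigned to them. FOXF1, a forkhead transcription factor of lung mesenchyme and endothelium, was mapped by ChIP-seq, the sequencing of chromatin precipitated with an antibody, in whole lung from wild-type C57BL/6 embryos at embryonic day 18.5. The 2 biological replicates, which form the only ChIP group, were each a pool of 3 lungs, and both were called against a 2% input of the same stage. Whole lung mixes many cell types, and summit lists hold no expression values, so the tissue could not be checked against marker levels and no site can be placed in one cell type.

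The replicate 1 list held 107378 summits on the nuclear chromosomes and the replicate 2 list held 61172, and the read depth is not known. Each summit carries a score, the authors' −log10 significance of the peak against the input. It depends on depth, so scores were ranked within a list, and a gap between the replicates' scores was not read as a difference between the lungs. Summits of both replicates made up a shared site where each was the other's nearest and they were at most 100 bp apart, and the site was placed midway. A site belonged to a gene when it lay inside the gene, or when it lay within 100 kb and an end of that gene was the nearest end of any protein-coding gene. Positions are 1-based on mm10, and the left end of a gene is the one with the lower coordinate.

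Tek encodes the receptor tyrosine kinase of endothelial cells, also called Tie2, that binds the angiopoietins. Angpt1 is its activating ligand, made largely by cells around the vessel, and it steadies vessels, whereas Angpt2 is made by endothelial cells and can oppose or mimic Angpt1 depending on the setting. Tie1 is a related receptor that pairs with Tek, Angpt4 is a further ligand, and Ptprb encodes the endothelial phosphatase VE-PTP, which removes phosphate from Tek. In the lung the pathway is known for its part in the growth and the barrier of the capillary bed.

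Every gene of the group except Angpt4 carried FOXF1 sites. In all, 5 of the 6 genes had at least 1 shared site, against 60.7% of all protein-coding genes under the same rule. With a median of 9.5 sites per gene, against 1 over all protein-coding genes, Tek had 16 sites, Angpt1 15, Angpt2 13, Ptprb 6, Tie1 1 and Angpt4 0. Of the 51 sites, 39 lay inside the genes and 12 lay outside them. A site within 1 kb of either end was present at 5 of the 6 genes, against 38.6% of all protein-coding genes. When pairing was restricted to the 10000 highest summits of each replicate, these 5 genes kept at least 1 site, against 16.6% of all protein-coding genes. The replicate 1 list had 35 summits at Angpt1, 27 at Angpt2, 23 at Tek, 18 at Ptprb, 4 at Tie1 and 0 at Angpt4. The replicate 2 list had 22 at Tek, 18 each at Angpt1 and Angpt2, 8 at Ptprb, 1 at Tie1 and 0 at Angpt4. The medians over all protein-coding genes were 2 summits in replicate 1 and 1 in replicate 2. No test was made of the list, which was drawn up with results of these data known.

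The longest protein-coding genes had more sites than the median gene, and 3 of the 6 genes are among them. Tek (135.9 kb), Angpt1 (252.3 kb) and Ptprb (114.0 kb) belong to the longest 10% of protein-coding genes, whose median was 5 sites. Among those, 84.2% of genes had fewer sites than Tek, 81.8% had fewer than Angpt1, and 51.9% had fewer than Ptprb. Angpt2 is 51.3 kb long, and genes of its length decile (35.9 to 57.1 kb) had a median of 1 site. Of these, 98.9% had fewer sites than the 13 of Angpt2. Per length, 10.3 sites per 100 kb lay inside Tek, 11.7 inside Angpt2, 5.55 inside Angpt1 and 4.38 inside Ptprb. The medians of their length deciles were 1.84 per 100 kb for the longest genes and 2.18 for genes of Angpt2's size.

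**Figure D1:**
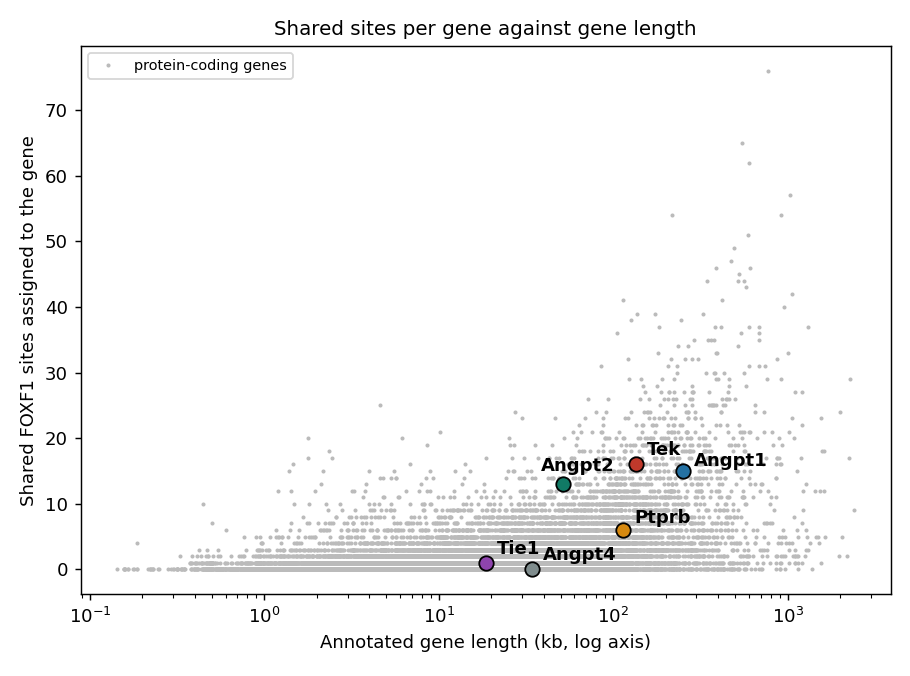
Number of shared FOXF1 sites assigned to each protein-coding gene (vertical axis) against its annotated length in kb (horizontal log axis); grey points are all protein-coding genes and coloured points the 6 named genes. Tek, Angpt1 and Angpt2 stand at 16, 15 and 13 sites, Ptprb at 6, and Tie1 and Angpt4 at 1 and 0. All lie within the range of genes of their length decile.

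Promoter sequences were at hand for 3 of the 6 genes, Tek, Tie1 and Angpt4, from RefSeq on the build GRCm38.p6, the assembly of mm10. All 3 are shown. The first 2 have a shared site beside them and the last has none. Each line gives the 250 bases before the annotated start, 5′ to 3′ on the strand of the gene, with motif matches in capitals. The motifs searched on both strands were forkhead GTAAACA with its variant ATAAACA, likewise GTAAATA with its variant ATAAATA, and for ETS proteins, a family with endothelial regulators, CCGGAA or else AGGAAG. The windows span chr4:94739039-94739288 on the plus strand for Tek, chr4:118489850-118490099 on the minus strand for Tie1 and chr2:151910957-151911206 on the plus strand for Angpt4.
Tek: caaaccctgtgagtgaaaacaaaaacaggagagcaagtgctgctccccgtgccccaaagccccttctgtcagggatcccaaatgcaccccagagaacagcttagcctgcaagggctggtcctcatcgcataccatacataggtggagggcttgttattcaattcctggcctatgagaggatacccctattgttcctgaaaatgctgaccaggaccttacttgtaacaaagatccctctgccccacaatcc
Tie1: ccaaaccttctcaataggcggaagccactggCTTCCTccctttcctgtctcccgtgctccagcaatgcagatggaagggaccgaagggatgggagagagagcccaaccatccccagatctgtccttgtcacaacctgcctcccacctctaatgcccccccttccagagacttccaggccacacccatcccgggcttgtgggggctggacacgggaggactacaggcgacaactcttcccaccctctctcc
Angpt4: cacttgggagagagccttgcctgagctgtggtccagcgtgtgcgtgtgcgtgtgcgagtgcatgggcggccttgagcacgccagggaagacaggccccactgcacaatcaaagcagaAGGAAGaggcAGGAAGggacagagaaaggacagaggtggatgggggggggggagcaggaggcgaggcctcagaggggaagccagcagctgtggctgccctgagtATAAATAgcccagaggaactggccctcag

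Motif matches differed among the windows. The Tek window held none of them, and the shared site nearest to it lay 245 bp downstream of the start that follows the window. RefSeq also annotates Tek from 203 bp before that start. The Tie1 window held 1 ETS match, CTTCCT, which is AGGAAG on the other strand, at bases 219 to 214 before the start. Its shared site lay 355 bp upstream of the start, 105 bp beyond the window. The Angpt4 window, with no site near it, held 2 ETS matches and the forkhead match ATAAATA at bases 29 to 23 before the start. With the T before it this stretch reads TATAAATA, which is also the form of a TATA box. The match is therefore not particular to forkhead factors. Among the same windows of all 32851 promoters, 13.6% held a forkhead match and 38.2% an ETS match. These matches describe letters and not binding, and the sequence under the summits was not analysed here.

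Tek, the angiopoietin receptor, carried the highest sites of the group. The gene spans chromosome 4 positions 94739086 to 94874976. Its highest site lay inside it at 94827033, 47943 bp from the right end, with a replicate 1 score of 221.3 and a replicate 2 score of 128.0. The next, 3219 bp to the right at 94830252, had scores of 214.2 (replicate 1) and 110.1 (replicate 2). These sites ranked 322 and 508 among the 51013 shared sites by the mean of both scores. The third, at 94769777, ranked 942 with scores of 193.7 (replicate 1) and 96.1 (replicate 2). All 3 stood among the 1000 highest shared sites, as no site of the other 5 genes did.

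A further group of strong sites stood at the left end of Tek, where its transcription starts. The site at 94739534, 448 bp inside that end, had scores of 171.9 (replicate 1) and 103.3 (replicate 2), and the one at 94746613, 7527 bp inside, had 166.8 (replicate 1) and 109.2 (replicate 2). Between them, the site at 94741999 had 132.3 (replicate 1) and 64.5 (replicate 2). The 5 strongest sites of Tek thus lay at or above the 98.2 percentile of both replicates' lists, which places them near the top of each. The other 10 sites spanned scores of 19.9 to 91.3 in replicate 1 (median 38.2) and of 8.15 to 54.4 in replicate 2 (median 12.7).

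Along Tek, strong sites stood at the left end and farther inside, with weaker sites between and beyond them. Of its 16 sites, 14 lay inside the gene and 2 lay to its left, 6432 and 18518 bp away, before the neighbouring gene Ift74 at 45.9 kb. No shared site lay in the 37.9 kb between 50.1 and 87.9 kb from the left end, just before the highest pair. The neighbour on the right, Eqtn, begins 721 bp beyond Tek, and no site assigned to Tek lay on that side. With 6 sites in the top 10% of all shared sites by mean score, Tek had more such sites than 99.7% of protein-coding genes. That share was not matched for length, and Tek is among the longest genes.

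**Figure D2:**
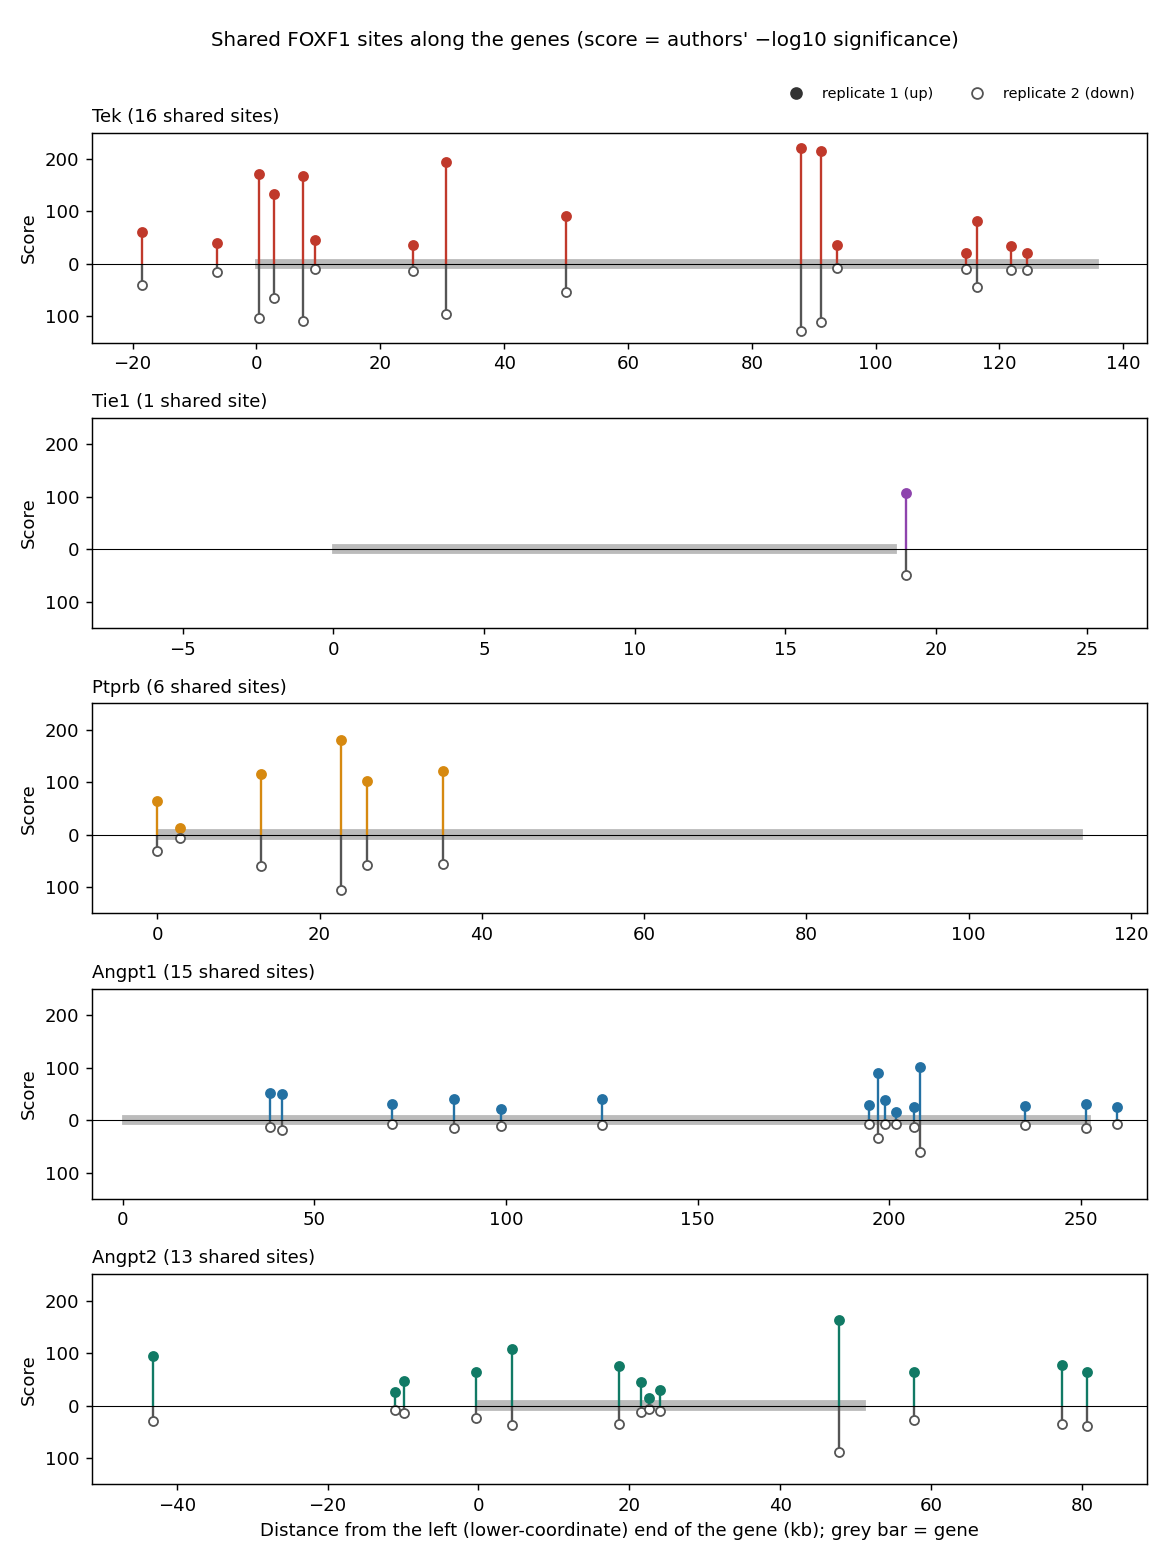
Shared FOXF1 sites of Tek, Tie1, Ptprb, Angpt1 and Angpt2 by distance from the left end of the gene in kb (horizontal axis, 1 scale per gene), with the authors' −log10 score upwards for replicate 1 and downwards for replicate 2; the grey bar is the gene. Tek has tall sites at its left end and from 87.9 kb, Ptprb has its 6 sites within 35.2 kb of its left end, and Angpt1 has many low sites.

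Tie1, the partner receptor of Tek, spans chromosome 4 positions 118471191 to 118489849 and had 1 shared site. It lay outside the gene at 118490204, 355 bp from the right end, where Tie1 is transcribed from, with scores of 106.7 (replicate 1) and 48.4 (replicate 2). Those scores stood at the 93.9 percentile of the replicate 1 list and the 86.5 percentile of the replicate 2 list. Its summits lay 2 bp apart in the replicates. Tie1 is the shortest of the 6 genes at 18.7 kb, and the median of genes of its length decile (17.2 to 24.6 kb) was also 1 site. No shared site lay inside the gene. Replicate 1 had 3 further summits assigned to Tie1, with scores of 8.94 to 15.5, and replicate 2 had none.

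Ptprb, the phosphatase that acts on Tek, had 6 sites, and 3 of them were among the top 10% of all shared sites. It spans chromosome 10 positions 116275502 to 116389538, with sites at 116275472, 116278316, 116288293, 116298110, 116301357 and 116310699. In that order the 6 sites had scores of 64.7, 12.1, 116.3, 180.3, 102.0 and 120.9 in replicate 1. In replicate 2 the same sites had 31.3, 6.67, 59.3, 105.4, 57.3 and 55.2. The highest, at 116298110, lay 22608 bp inside the left end and ranked 1011 of all shared sites, just below the 1000 highest. Those in the top 10% were at 116288293, 116298110 and 116310699, and 98.0% of protein-coding genes had fewer than 3 such sites. This share, too, was not matched for length, and Ptprb is among the longest genes.

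The sites of Ptprb were confined to 1 side of the gene in the shared list. The leftmost, at 116275472, lay 30 bp outside the left end, in the 570 bp gap between Ptprb and the phosphatase gene Ptprr, which itself had 15 shared sites. The rightmost lay 35197 bp inside, at 116310699. The remaining 78.8 kb, or 69.1% of the gene, held no shared site. Replicate 1 alone had 2 summits there, with scores of 8.34 and 23.0, and replicate 2 had none.

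Among the ligand genes, Angpt2, at chromosome 8 positions 18690263 to 18741562, carried the strongest site. At 18738068, 3494 bp inside the right end, it had scores of 163.1 (replicate 1) and 89.4 (replicate 2) and ranked 1718 of all shared sites. The site at 18694696, 4433 bp inside the left end, had 107.0 (replicate 1) and 36.6 (replicate 2). The site at 18647058, 43205 bp to the left of the gene, which is the farthest outside its gene among the 51 sites, had 95.0 (replicate 1) and 30.3 (replicate 2). Only the first stood in the top 10%.

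The other sites of Angpt2 ranked from 12179 to 49153 of all shared sites. Those at 18767642 and 18770952, to the right of the gene, had 77.0 and 63.0 in replicate 1, and 35.5 and 38.2 in replicate 2. The site at 18708944 inside the gene had 75.9 in replicate 1 and 35.5 in replicate 2. The site closest to an end, 305 bp outside the left one at 18689958, had 63.0 in replicate 1 and 22.9 in replicate 2. The other 6 sites had scores of 13.4 to 64.1 in replicate 1 (median 37.3) and of 6.67 to 26.9 in replicate 2 (median 11.5).

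The sites of Angpt2 are shared with another gene. Of its 13 sites, 6 lay inside, 4 to the left and 3 to the right. The whole gene lies within Mcph1, a gene of 213.0 kb that acts in DNA damage and chromosome condensation, and all 13 sites also belong to Mcph1 under the same rule, which gave Mcph1 18 in all. Neighbouring summits at the right end of Angpt2 just missed the pairing limit: the replicate 1 summit lay 55 bp outside that end with a score of 36.6, and the replicate 2 summit lay 56 bp inside it with 11.4. They were 111 bp apart. The widest pair that did count lay 98 bp apart, in Angpt1, with scores of 38.5 (replicate 1) and 7.78 (replicate 2).

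Angpt1, the activating ligand, had nearly as many sites as Tek, with lower median scores. It spans chromosome 15 positions 42424667 to 42676977. Its highest site, at 42632651, had scores of 101.5 (replicate 1) and 60.9 (replicate 2) and ranked 5928. The next, at 42621594, had 90.2 (replicate 1) and 33.4 (replicate 2). No Angpt1 site stood in the top 10% of shared sites, although the gene had more sites than 97.7% of protein-coding genes. That share was not matched for length, and 81.8% of genes in its length decile had fewer sites. The median scores over its 15 sites were 31.0 in replicate 1 and 10.8 in replicate 2, and over the 16 sites of Tek 71.6 in replicate 1 and 42.1 in replicate 2.

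Some of the Angpt1 sites formed a dense run. Between 194.7 and 208.0 kb from the left end, 6 sites lay within 13.3 kb, including the 2 highest. The 4 next by mean score lay elsewhere: 42466200 had 48.9 in replicate 1 and 19.1 in replicate 2, 42463076 had 50.8 (replicate 1) and 12.7 (replicate 2), 42511143 had 40.3 (replicate 1) and 14.8 (replicate 2), and 42549766 had 39.4 (replicate 1) and 9.56 (replicate 2). The site nearest to an end, 872 bp inside the right one at 42676105, had 31.0 in replicate 1 and 16.0 in replicate 2. The other 8 had scores of 15.5 to 38.5 in replicate 1 and of 6.67 to 13.2 in replicate 2. Angpt1 stands alone in its region: the nearest protein-coding genes were Abra, 554.9 kb to the left, and Rspo2, 343.8 kb to the right. All but 1 of its 15 sites lay inside the gene, and that one lay 7041 bp to its right.

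Angpt4, the remaining ligand, at chromosome 2 positions 151911207 to 151945337, was the gene without a site. Neither replicate had a single summit assigned to it, shared or not. Within 100 kb of the gene, 7 shared sites were found, all to its right and all nearer to other genes, Fam110a with 4 and Slc52a3 with 3. The nearest lay 23221 bp beyond the right end of Angpt4, with scores of 41.4 (replicate 1) and 17.4 (replicate 2). Rspo4, the neighbour on the left, had no shared site either. The files list only summits above the authors' threshold, so weaker binding at Angpt4 was not measured.

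Over all 51 sites, median scores lay close to those of the other shared sites. The median score in replicate 1 was 50.8 over the 51 sites, against 44.1 over the other 50962 shared sites. In replicate 2 both medians were 19.1. In the top 10% by mean score stood 10 of the 51 sites (19.6%), against 5095 of the other 50962, the top 10% being set over all shared sites. They came from Tek with 6, Ptprb with 3 and Angpt2 with 1. At least 1 such site was present at 3 of the 6 genes, against 12.3% of all protein-coding genes, a share not matched for length.

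The ranking of the sites by score was compared between the replicates. Spearman's rho between the scores was 0.928 across the 51 sites, against 0.883 across the other shared sites. Within a gene it was 0.914 over the 16 sites of Tek, 0.884 over the 13 of Angpt2, 0.829 over the 6 of Ptprb and 0.633 over the 15 of Angpt1, the lowest of these. Sites of 1 gene come from the same libraries and are not independent, so this describes these libraries. Replicate 1 had the higher score at all 51 sites, as it did at 49999 of the other shared sites, and the ratio of the scores had a median of 2.17 over the 51 sites, against 2.29 over the others. The median gap between paired summits was 13 bp, the same as over the other shared sites.

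**Figure D3:**
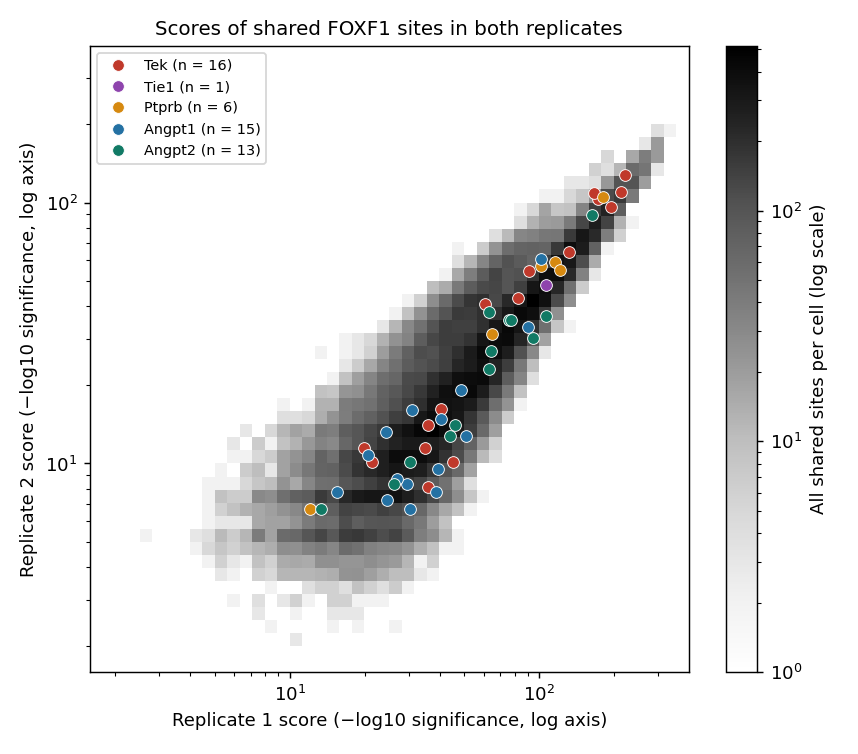
Replicate 2 score against replicate 1 score, both −log10 significance on log axes; grey cells count all shared sites and coloured points are the 51 sites of the named genes. The sites of Tek reach the highest scores of the named genes, followed by those of Ptprb and Angpt2. Those of Angpt1 lie mostly in the lower part, and all 51 lie within the cloud of other sites.

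Summits of both replicates also lay outside shared sites at these genes. Of 107 replicate 1 summits assigned to the 6 genes, 56 were outside shared sites (52.3%), against 52.5% of the whole list. Of 67 replicate 2 summits, 16 were outside them (23.9%), against 16.6% of the whole list. They include 4 pairs with a summit in each replicate that lay 111 to 467 bp apart, past the pairing limit, 2 at Angpt2 and 1 each at Tek and Angpt1. Among summits outside shared sites, the highest inside a gene was 38.0 in replicate 1, in Angpt1 at 42573329, and 39.1 in replicate 2, in Angpt2 at 18739471. Angpt1 reached 12.1 in replicate 2, and Angpt2 reached 21.9 in replicate 1. Inside Tek the highest were 23.8 in replicate 1 and 35.5 in replicate 2, inside Ptprb 23.0 in replicate 1 and 14.8 in replicate 2, and inside Tie1 15.5 in replicate 1.

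The other genes of Tie signalling, 25 genes of further ligands, adaptors, kinases and targets, had sites at 24 of them (96.0%), against 60.7% of all protein-coding genes. Their median was 3 sites per gene, with a top 10% site at 10 of them (40.0%), against 12.3% of all protein-coding genes. These genes are also longer, with a median of 47.9 kb, against 17.2 kb over all protein-coding genes. Cdh5, the adhesion molecule of endothelial junctions, had 17 sites, Foxo1, a forkhead factor that AKT switches off downstream of Tek, had 16, and Pik3r1, a regulatory subunit of PI3 kinase, had 14. Adam17, a membrane protease, had none. The sites of Cdh5 reached a mean score of 173.8, close to the 174.7 of Tek, while those of Foxo1 and Pik3r1 reached 123.7 and 123.8.

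The angiopoietin-like genes have products that are related to the angiopoietins and do not bind Tek. Of the 6 analysed, 4 had sites (66.7%), against 60.7% of all protein-coding genes. The median of the 6 was 1 site. None of their 9 sites stood in the top 10%, and 12.3% of all protein-coding genes had such a site. Angptl2 had 5 sites, Angptl4, an inhibitor of lipoprotein lipase, had 2, and Angptl6 and Angptl8 had 1 each. Angptl1 and Angptl7 had none. These genes are short, with a median length of 6.35 kb, against 82.7 kb for the 6 angiopoietin and Tie genes.

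Among other vascular ligand and receptor systems, the VEGF receptors held the most sites of their list. Of 10 VEGF genes, with a median length of 44.7 kb, 7 had sites (70.0%), against 60.7% of all protein-coding genes. The median of these 10 genes was 6.5 sites. Kdr, the main VEGF receptor, had 23, and the receptor gene Flt1 and the coreceptor gene Nrp1 had 19 each, while the ligand genes Vegfb, Vegfd and Pgf had none. Of 11 sphingosine phosphate genes, with a median length of 10.8 kb, 10 had sites (90.9%), against the same 60.7%, with a median of 4. There the receptor gene S1pr1 had 25, the phosphatase gene Sgpp2 10 and the transporter gene Spns2 8, and S1pr5 had none. A top 10% site was present at 3 of the 10 VEGF genes (30.0%), against 12.3% of all protein-coding genes. The same held for 2 of the 11 sphingosine phosphate genes (18.2%). Kdr had 10 such sites, Nrp1 6 and Flt1 5, against 6 at Tek. The sites of Spns2 reached a mean score of 180.3, those of Kdr 170.4 and those of Nrp1 167.1, against 174.7 for Tek. These lists are given side by side, and their differences from the angiopoietin and Tie genes were not tested.

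**Figure D4:**
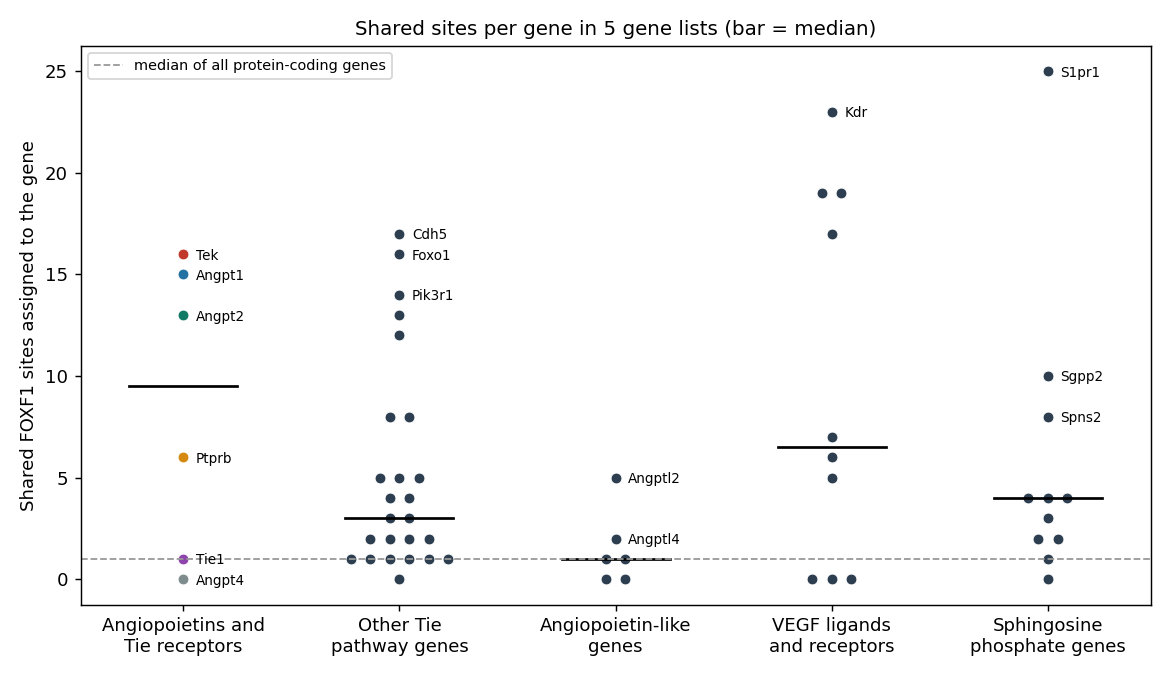
Shared FOXF1 sites per gene (vertical axis) in 5 gene lists, 1 point per gene, with the list median as a bar and the median of all protein-coding genes, 1 site, as a dashed line. The angiopoietin and Tie genes span 0 to 16 sites around a median of 9.5, and every list spans from 0 sites upwards.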

How the data were processed

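Per the labels, each precipitation took 10 µg of sheared chromatin, fixed in 1% formaldehyde, and 7 µg of an antibody to FOXF1. The submitters' processing notes name MACS2 and mm10, and the peak names show that the authors called each replicate against the control. The deposited value of each summit is a −log10 score; the sources used here do not give its kind (p or q), the aligner, the options or the depth. The input entered only through these calls.

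Nuclear summits (chromosomes 1 to 19, X, Y) were paired and assigned with Python 3.11.15, pandas 2.3.3, numpy 2.4.6 and scipy 1.17.1, by functions tested on simulated data. Genes came from RefSeq on GRCm38.p6, which gives gene ends but no exons, so exons and introns could not be separated. The strand was known for the 3 genes with a promoter sequence. All 58 listed symbols matched, and 1 angiopoietin-like gene is not reported here.

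With 1 group of 2 replicates and no second condition, no test was made. Members and lists were chosen with earlier results of these data known. Text names the 6 members, all sites of a gene with up to 10, otherwise the 6 highest and the one nearest an end, and in each other list the 3 genes with most sites and those with none. There were 11 alternatives for pairing, score, window, assignment and replicates.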

Additional observations from a re-analysis of the deposited data

How the results depend on the processing

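No paired analysis was possible because there is 1 ChIP group and no second group with a summit list. The number of the 6 genes with a site was 5 under 10 of 11 alternatives and 4 with sites inside the gene only, where Tie1 lost its single site. The total of 51 sites became 14 when each list was held to its 10000 highest summits, of which Tek had 7 against 16, and Angpt1 and Angpt2 1 each against 15 and 13; with 1 replicate's list alone it was 67 to 107. The 8 Angpt1 sites left at a score of at least 10 in both replicates, the 6 Angpt2 sites inside the gene, and the 35, 27, 18 and 4 replicate 1 summits of Angpt1, Angpt2, Ptprb and Tie1 also differed by over 1.5 times from the main counts. Angpt4 had 0 under all 11. The highest site of a gene kept its mean score in the alternatives with both replicates, wherever the gene had a site. Without replicate 1 that of Tie1 had 48.4, against a mean of 77.6, and those of Tek, Ptprb, Angpt2 and Angpt1 moved by less than 1.5 times without either replicate. The share of all protein-coding genes with a site, 60.7%, was 57.5% with pairs within 50 bp, 63.7% within 200 bp, 56.3% at a score of at least 10, 16.6% with the 10000 highest summits, 60.1% with a window of 50 kb, 58.7% with 20 kb, 48.1% inside genes only, 57.4% with all annotated genes competing, 58.9% by nearest end only, and 65.3% to 72.4% with 1 replicate's list. The changes in counts and shares follow from fewer or more sites entering or assigned in each setting. Depth is unknown, so sites missing from the shorter replicate 2 list cannot be read as absent.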

Other observations

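Of the 51 sites, 2 (3.92%) lay within 1 kb of an end of an annotated long noncoding RNA gene, against 5.74% of the other 50962 shared sites. In Angpt1, the site at 42631052 on chromosome 15 lay 4 bp inside the left end of Gm41313, a noncoding gene that spans 42631048 to 42666066 within Angpt1, and it had scores of 24.3 (replicate 1) and 13.2 (replicate 2). The highest Angpt1 site, at 42632651, also lay inside Gm41313. To the left of Tek, the site at 94732654 on chromosome 4 lay 90 bp beyond the right end of the noncoding gene Gm40205, with 40.3 in replicate 1 and 16.2 in replicate 2. No expression values were at hand for either noncoding gene.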
